A study of Mus musculus with 8 samples.

Results

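The Sall family of the mouse has 4 members, Sall1, Sall2, Sall3 and Sall4, and chromatin accessibility around these genes was followed from fibroblasts to pluripotent cells. Members were taken by name from the GENCODE annotation, which lists 21938 protein-coding genes on the 21 chromosomes used. A peak was assigned to a member where it overlapped the gene or the 50 kb to each side of it, a stretch called the window here. Of 176445 peaks in 4 lists, 65 lay in a Sall window. The study asked how the demethylase JMJD3 and KLF4 act during reprogramming with OCT4, SOX2, KLF4 and c-MYC (OSKM), and its ATAC-seq series, which maps open chromatin with a transposase, describes the course of control cells without added JMJD3. There were 8 libraries, 2 for each of mouse embryonic fibroblasts (MEFs), OSKM cells at day 5, OSKM cells at day 10 and embryonic stem cells (ESCs), and 1 peak list was deposited for each pair. All peak names in a list carry the same mark of a first replicate (rp1), so the widths, fold enrichments, q values and ranks below may be those of 1 library of the pair. Each list is also labelled as an intersection, so a listed width may instead be that of an overlap between the libraries. No list gave values for both libraries, so nothing could be tested between groups, and all differences below are descriptions of 4 lists without replicate error. Unless said otherwise, 4 values in a row follow the order MEFs, day 5, day 10 and ESCs.

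All groups were labelled wild type for the knockout field. MEFs, both sets of OSKM cells and 1 of the 2 ESC libraries were of the strain C57BL/6J-OG2, which carries a green fluorescent reporter driven by Pou5f1 sequence, and the other ESC library was labelled C57Bl6J. MEFs and ESCs received no vector. OSKM cells were MEFs infected with retroviruses for the 4 factors together with a FLAG vector as control, and grew in ESC medium to which vitamin C had been added. No sort is stated for the OSKM populations, and fewer cells with an open site and a less open site per cell cannot be told apart in bulk libraries. The sources differ on the ESCs, which grew on a feeder layer of mitomycin-treated MEFs per the labels and on gelatin without feeders named in the study's methods.

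SALL proteins are C2H2 zinc-finger transcription factors of the spalt family that bind AT-rich DNA and recruit the NuRD complex, a deacetylase and nucleosome remodeller, through a short motif at their amino terminus. SALL4 is part of the circuit of transcription factors that keeps ESCs pluripotent, and SALL1 is also made there and is needed for kidney development. SALL2 is the most divergent member, whereas SALL3 acts in the nervous system and in limb and palate development.

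In the order given above, list length was 56514, 36219, 35226 and 48486 peaks, so that counts in a window have to be read against list length. The depth of the libraries was unknown, since the lists hold no reads. Cell identity was checked by peaks on start sites of fixed marker genes. Of 12 fibroblast markers, 12, 10, 8 and 6 had one. Of 12 markers of pluripotent cells, 4, 3, 4 and 9 did. The share over all protein-coding genes was 60.0%, 52.1%, 56.0% and 55.8%. Fibroblast markers thus lost start-site peaks along the course and markers of pluripotent cells had most in ESCs. The 6 of 12 fibroblast markers with one in the ESC list were near the share over all genes.

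The sequences below are those on which the account of the family turns, read from mouse genome build mm10 (GRCm38). The first 3 are sites at which the study placed ChIP-qPCR primers as enhancers of Sall1 and Sall4. They are shown on the plus strand, and capitals mark both primer sites. Sall1-enh2 lies at chr8:89015699-89015891 and overlapped a peak in all 4 lists, in MEFs by only 8 of its 193 bp. Sall1-enh1 lies at chr8:89007195-89007368 and overlapped a peak at day 10 alone. Sall4-enh lies at chr2:168841506-168841682. Of its 177 bp, 74 overlapped a peak in MEFs, 37 at day 5 and all at day 10, and none did in ESCs.
Sall1-enh2: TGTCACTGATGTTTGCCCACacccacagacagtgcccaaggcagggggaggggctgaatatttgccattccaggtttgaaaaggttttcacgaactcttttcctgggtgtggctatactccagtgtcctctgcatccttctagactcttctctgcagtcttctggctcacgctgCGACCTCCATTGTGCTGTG
Sall1-enh1: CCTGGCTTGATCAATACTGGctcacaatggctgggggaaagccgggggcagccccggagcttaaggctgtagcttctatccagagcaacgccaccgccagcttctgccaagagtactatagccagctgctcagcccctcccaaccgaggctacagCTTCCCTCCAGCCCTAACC
Sall4-enh: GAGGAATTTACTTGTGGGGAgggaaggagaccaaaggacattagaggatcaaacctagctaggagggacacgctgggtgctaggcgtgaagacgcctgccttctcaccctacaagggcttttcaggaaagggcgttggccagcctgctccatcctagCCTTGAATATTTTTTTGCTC

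The next pair are the ESC-specific regions of Sall1 and Sall4 with the highest significance, each peak shown by its central 300 bases on the plus strand. They lie at chr8:88997213-88997512, downstream of Sall1, and at chr2:168791178-168791477, upstream of Sall4, both outside the gene body. Capitals mark matches to a KLF motif (CCNCNCCC) or a SOX motif (CATTGT) on either strand, which overlap by 1 base in the Sall4 site.
Sall1 ESC site: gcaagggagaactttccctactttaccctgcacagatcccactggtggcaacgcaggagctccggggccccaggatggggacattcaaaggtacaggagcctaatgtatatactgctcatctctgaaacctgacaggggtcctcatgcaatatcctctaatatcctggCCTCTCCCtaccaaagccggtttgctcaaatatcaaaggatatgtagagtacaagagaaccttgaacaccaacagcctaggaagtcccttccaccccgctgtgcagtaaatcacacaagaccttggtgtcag
Sall4 ESC site: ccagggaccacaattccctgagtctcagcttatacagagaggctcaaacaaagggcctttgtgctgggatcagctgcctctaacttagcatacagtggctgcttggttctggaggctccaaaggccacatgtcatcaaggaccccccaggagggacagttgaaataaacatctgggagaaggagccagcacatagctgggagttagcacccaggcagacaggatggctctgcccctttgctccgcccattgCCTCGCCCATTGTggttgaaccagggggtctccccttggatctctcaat

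RefSeq promoter sequence (GRCm38.p6) was at hand for 2 of the 4 genes. The 250 bases before the most upstream start of Sall1 (chr8:89044163-89044412, minus strand) and before the downstream start of Sall2 (chr14:52316324-52316573, minus strand) are printed in the direction of transcription, with KLF matches in capitals. They are shown because peaks lay at or just inside these start sites. A KLF match was present in 45.9% of 32851 promoters of this length, and the Sall1 and Sall2 stretches shown held 3 and 7. The stretches before the other RefSeq starts, not shown, held 5 and 8 matches at Sall1 and 0 at the upstream start of Sall2.
Sall1 promoter: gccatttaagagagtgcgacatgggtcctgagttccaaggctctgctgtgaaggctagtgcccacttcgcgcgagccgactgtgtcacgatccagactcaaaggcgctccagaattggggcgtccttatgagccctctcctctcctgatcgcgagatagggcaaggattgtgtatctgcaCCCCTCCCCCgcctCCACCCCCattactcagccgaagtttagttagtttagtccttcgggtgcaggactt
Sall2 promoter: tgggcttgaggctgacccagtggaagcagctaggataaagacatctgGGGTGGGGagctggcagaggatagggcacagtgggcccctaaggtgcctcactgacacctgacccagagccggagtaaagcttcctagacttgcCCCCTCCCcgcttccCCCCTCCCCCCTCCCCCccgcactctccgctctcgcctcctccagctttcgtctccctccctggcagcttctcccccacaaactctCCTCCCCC

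Window peaks of the 4 genes summed to 17, 9, 15 and 24. These were 0.0301%, 0.0248%, 0.0426% and 0.0495% of the peaks in each list. As deposited, the family thus had its fewest peaks at day 5 and its most in ESCs, both as a count and as a share. This order depended on list length, since with every list limited to its 35226 best peaks the windows held 7, 9, 15 and 14, with the fewest in MEFs and the most at day 10. Peaks that cover a start site of another gene were part of these numbers, and without them 12, 5, 9 and 20 peaks remained. The day 10 peak over a Sall4 start was left out in this way, since it also covers the start of a non-coding RNA, Gm14261. The median fold enrichment of the window peaks was 2.88, 3.81, 3.38 and 3.16, beside 3.32, 3.72, 3.36 and 3.48 over the whole lists.

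The members followed different courses. For Sall1 the 4 lists held 2, 3, 5 and 8 peaks. Sall4 had 3, 1, 5 and 5. Sall2 had 6, 3, 4 and 6, and Sall3 had 6, 2, 1 and 5. Among 3037 genes of 15 to 25 kb, a range that includes all 4 members, the median was 5, 3, 3 and 4. Sall1 rose from below this median in MEFs, where 14.3% of these genes had fewer peaks, to above it in ESCs, where 85.7% had fewer. Sall4 was low at day 5, with 11% of genes below it, and Sall3 was low at day 10, with 12.0% below it. Sall1 and Sall4 had more peaks in ESCs than in MEFs, as did 36.7% of the genes of this length, Sall3 had fewer, as did 41.0%, and Sall2 had as many, as did 22.3%. A gain of at least 6 peaks, the size seen at Sall1, was found for 0.823% of genes. A gain of at least 4 peaks from day 5 to day 10, the size seen at Sall4, was found for 1.42%. Sall1, Sall2 and Sall4 each had more peaks at day 10 than at day 5, as did 36.0% of genes. At that equal list length Sall1 had 0, 3, 5 and 5 peaks, Sall4 had 0, 1, 5 and 3, Sall2 had 4, 3, 4 and 3, and Sall3 had 3, 2, 1 and 3, so that none of the MEF peaks of Sall1 and Sall4 was among the best. Sall3 had 1 peak more in ESCs than in MEFs over the gene body and 2 more with 10 kb to each side, the opposite of its window.

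**Figure D1:**
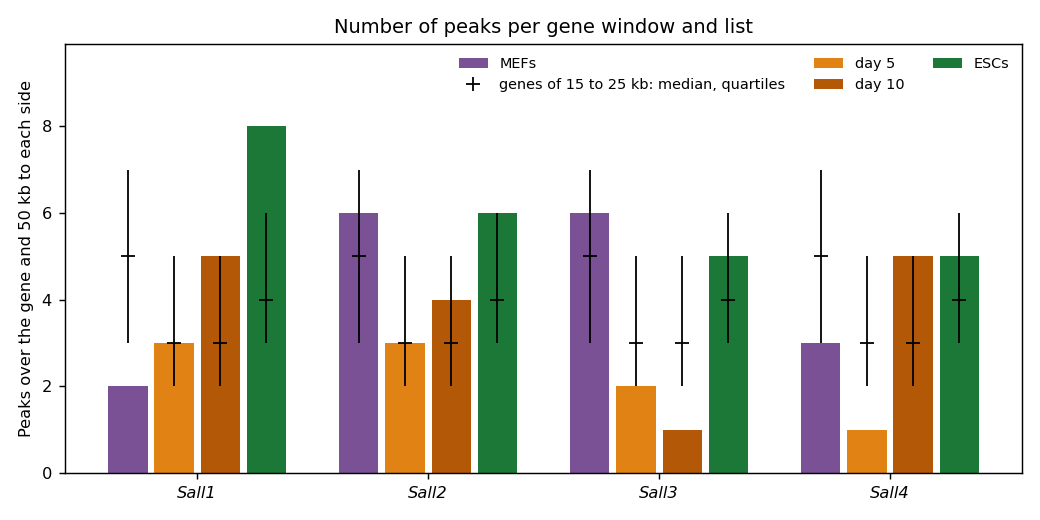
Bars give the number of peaks that overlap each Sall gene or the 50 kb to each side, for the lists of MEFs, OSKM day 5, OSKM day 10 and ESCs. Black ticks and lines give the median and quartiles of 3037 genes of 15 to 25 kb. Sall1 has 2, 3, 5 and 8 peaks and crosses from below the MEF median of 5 to above the ESC median of 4, whereas Sall3 falls to 1 peak at day 10.

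Sall4 (ENSMUSG00000027547.17, chr2:168748332-168767943, minus strand) had no peak within the gene at day 5. Its only window peak then lay on the start site of Atp9a, a lipid-flipping ATPase, and ended 13087 bp from the nearest Sall4 start. In MEFs a peak of 237 bp (chr2:168765586-168765822) lay in an intron with a fold enrichment of 2.45. At day 10 a peak of 1781 bp (chr2:168765214-168766994) covered the same place with a fold enrichment of 2.32, including the Sall4 start at position 168765246 and the start of Gm14261, a non-coding RNA. It ranked 28185 of 35226 in its list. In ESCs a peak of 425 bp (chr2:168766845-168767269) covered 3 start sites further upstream with a fold enrichment of 3.88 and a −log10 q of 8.97, rank 6547 of 48486 in its list. A second ESC peak of 393 bp ended 7 bp from the start at 168765246. Peaks over Sall4 starts were therefore listed at day 10 and in ESCs, and lay over different starts. The day 10 peak overlapped the ESC peak of 425 bp, however, and ended 35 bp from the nearest of the 3 starts covered in ESCs.

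Away from its starts, Sall4 had 2 ESC-specific regions, both upstream. That at chr2:168791094-168791562, centred 23385 bp before the first base and shown above in its central part, had a fold enrichment of 4.55 and a −log10 q of 5.99. That at chr2:168780113-168780740 was weaker, with 2.85 and 1.69. Another pair of regions was found only at day 10. These were an intronic peak of 320 bp with a fold enrichment of 2.23 and a peak of 335 bp, centred 33827 bp past the first base, with 3.78. The region with the most peak sequence was the Atp9a start, listed in all 4 groups at a fold enrichment of 2.88, 2.94, 3.17 and 3.38.

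Sall1 (ENSMUSG00000031665.7, chr8:89027235-89044162, minus strand) had no peak on a start site of another gene in its window, unlike the other members. At its start region the lists held a peak of 805 bp in MEFs, 51 bp at day 5, 1982 bp at day 10 and 970 bp in ESCs. Fold enrichment there was low in all, at 2.31, 2.99, 2.63 and 2.28. Only the day 10 peak (chr8:89042200-89044181) reached the annotated start. The others lay 240, 441 and 212 bp inside the gene, and the MEF peak ranked 48415 of 56514. The start region was thus listed throughout, and what differed most was the listed width, which may be that of an overlap between libraries.

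Of the 10 regions in the Sall1 window, 6 were ESC-specific, meaning listed in ESCs and not in MEFs, and 0 were MEF-specific. Of the 6, 3 lay upstream, centred 2560, 8927 and 19772 bp before the first base, with fold enrichments of 2.37, 3.21 and 3.67. The others lay downstream of the gene, centred 18474, 40369 and 46799 bp past the first base, with maximum fold enrichments of 2.75, 3.25 and 4.31. Of these 6, only the region at 40369 bp was already listed at day 10, as a peak of 320 bp within the 898 bp of the ESC peak. Transient regions, listed at day 5 or day 10 but in neither MEFs nor ESCs, numbered 2. That centred at 51931 bp had a fold enrichment of 4.41 at day 5 and 3.43 at day 10, and that at 37121 bp had 2.77 at day 10. The region at chr8:89015285-89016103, 28468 bp past the first base, was in every list with a fold enrichment of 2.73, 3.37, 3.18 and 3.58.

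Sall2 (ENSMUSG00000049532.11, chr14:52311172-52328762, minus strand) has 2 annotated starts. A peak lay just inside the downstream start in all lists, 28 bp away in MEFs, 155 bp at day 5, 127 bp at day 10 and 100 bp in ESCs, with a fold enrichment of 3.97, 3.57, 4.18 and 3.50. It covered neither start. A peak of 1219 bp (chr14:52327323-52328541) lay 221 bp inside the upstream start in MEFs with a fold enrichment of 2.72, and none was listed there at day 5, day 10 or in ESCs. The nearest peaks to that start were then 12594, 9825 and 9909 bp away. Sall2 hence kept the peak beside its downstream start, and that beside the upstream start was listed in MEFs alone. The MEF peak beside the upstream start ranked 48771 of 56514, beyond the whole length of each other list (36219, 35226 and 48486 peaks). Its absence from those lists can therefore not be told apart from list length.

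The highest peaks of the Sall2 window belonged to its neighbours. One region covered the starts of Rab2b, a small GTPase, and Tox4, an HMG-box protein, with −log10 q of 20.4, 16.0, 17.5 and 16.3 in the 4 lists, and another covered the start of Mettl3, the RNA methyltransferase, with 18.2, 12.3, 12.3 and 10.3. A region centred 10167 bp before the first base was listed in MEFs, at day 10 and in ESCs but not at day 5. ESC-specific regions numbered 2, centred 14962 bp upstream and 43246 bp downstream of the first base, with fold enrichments of 3.11 and 2.58.

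Sall3 (ENSMUSG00000024565.9, chr18:80966376-80986771, minus strand) had no peak in or near the gene at day 5 or day 10. The peaks nearest to a start, 40850 and 40858 bp away, lay on the start of Atp9b, a relative of Atp9a. In MEFs a peak of 445 bp lay 402 bp inside the upstream start with a fold enrichment of 2.60, and in ESCs a peak of 362 bp lay 338 bp inside it with 2.27. Both were weak, at ranks 41494 of 56514 and 47829 of 48486. ESC-specific regions were an intronic peak of 1776 bp, centred 4812 bp into the gene with a fold enrichment of 3.08, and a peak of 173 bp centred 1002 bp before the first base with 2.63. One transient region was listed, at day 5, with a fold enrichment of 3.81. Peaks at Sall3 were thus listed at both ends of the course and absent from the lists in between, apart from the neighbour's start and that transient region. The peaks beside the upstream start ranked beyond the whole length of the day 5 and day 10 lists (36219 and 35226 peaks). Their absence from those lists can therefore not be told apart from list length.

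**Figure D2:**
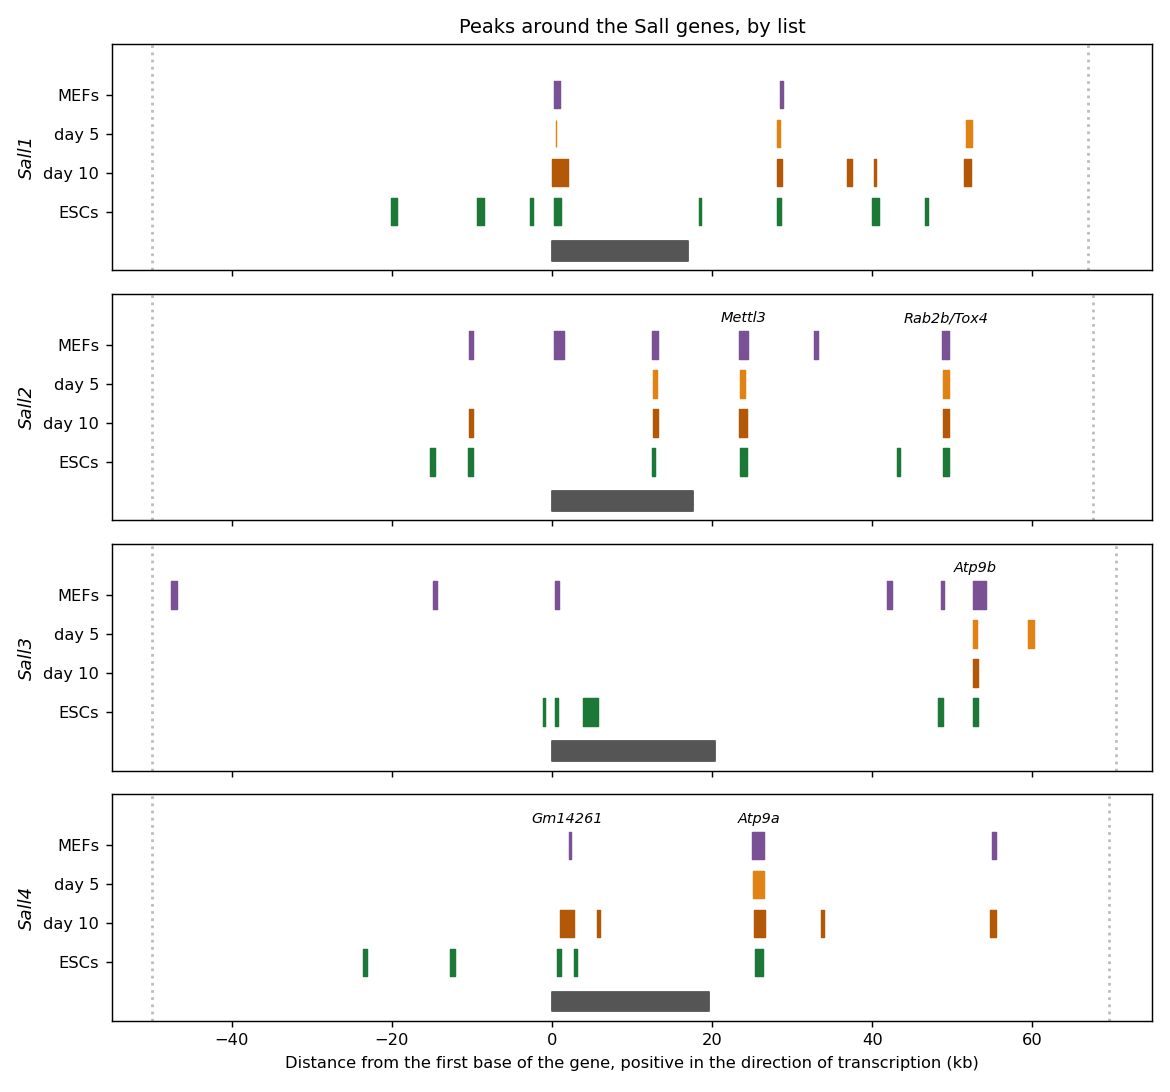
Each coloured block is a peak, drawn to scale by its distance in kb from the first base of the gene, positive in the direction of transcription, with a row for each list. The grey bar is the gene, dotted lines bound the window, and names mark peaks on start sites of other genes. Sall1 gains peaks on both sides from MEFs (2) to ESCs (8), and Sall3 keeps 1 peak, at Atp9b, at day 10.

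Counted by the strict criterion that a peak covers an annotated start, 0 of the 4 genes had one in MEFs (60.0% of all protein-coding genes), 0 at day 5 (52.1%), 2 at day 10 (56.0%) and 1 in ESCs (55.8%). Sall1 was covered at day 10 only, a pattern of 0.597% of genes, and Sall4 at day 10 and in ESCs, a pattern of 0.501%. Sall2 and Sall3 were covered in no list, as were 35.4% of genes, and no member was covered in all 4 lists, as were 46.8%. The criterion was narrow for this family, since many peaks ended within a short distance of a start. Within 1 kb of a start, a peak was found for 4 genes in the MEF list (64.5%), 2 in the day 5 list (57.2%), 3 in the day 10 list (60.0%) and 4 in the ESC list (62.3%). Sall1 and Sall2 then had one in all 4 lists, as did 52.9% of genes. Sall3 had one in MEFs and ESCs only (2.29%) and Sall4 in all but day 5 (2.37%). The MEF peaks counted here at Sall1, Sall3 and Sall4 ranked 48415, 41494 and 52303. Those ranks lie beyond the whole lists of day 5 (36219 peaks) and day 10 (35226 peaks), as do those of the nearest ESC peaks at Sall1 (40795) and Sall3 (47829). The part of the differences between lists that rests on those peaks can thus not be told apart from list length. At Sall4 the day 10 peak over a start (rank 28185) and the ESC peak over 3 starts (rank 6547) ranked within the length of the day 5 list. Why day 5 listed no peak near a Sall4 start was not tested. With RefSeq starts, chosen after the peaks had been seen, 1, 0, 2 and 3 genes were covered, because a RefSeq start of Sall1 lay under its peaks in MEFs, at day 10 and in ESCs and one of Sall3 under its ESC peak.

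**Figure D3:**
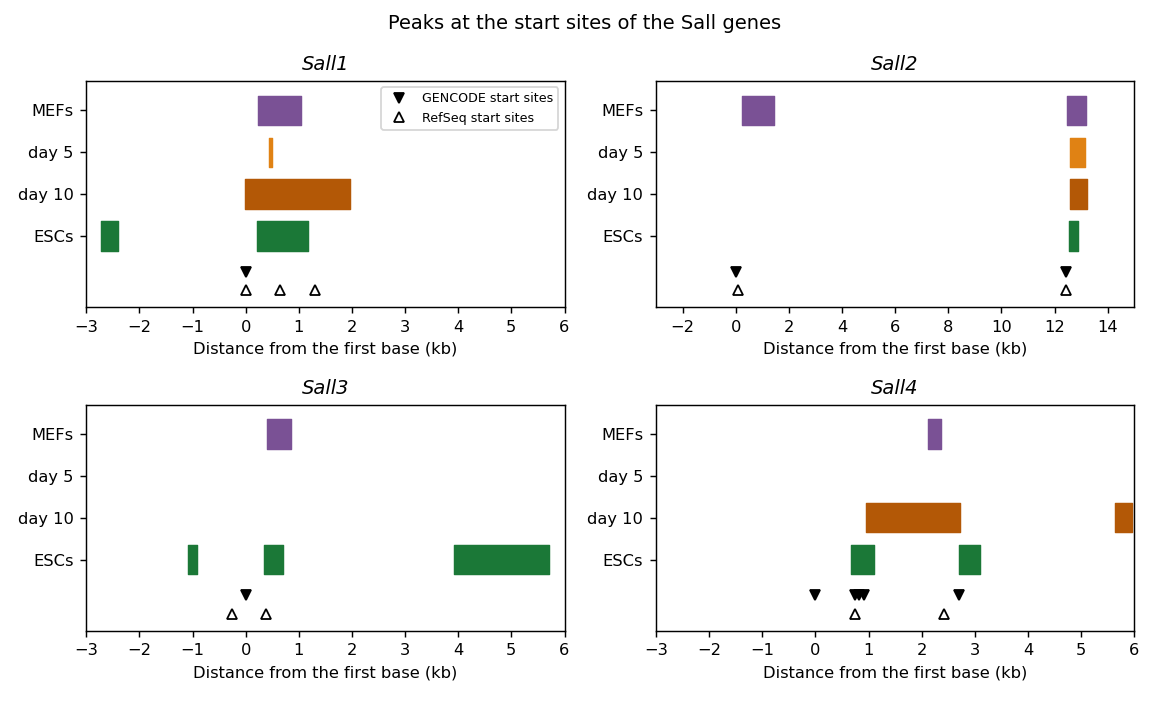
Peaks near the starts of the 4 genes, drawn by distance in kb from the first base of each gene, with a row for each list. Filled triangles are GENCODE starts and open triangles RefSeq starts. Sall4 has no peak here at day 5 and its strongest peak over 3 starts in ESCs, and the Sall2 peak beside the downstream start is in all 4 lists.

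Base composition around the starts differed among the members. In the 1000 bp around the most upstream start the GC content was 58.0% at Sall1, 44.3% at Sall2, 77.2% at Sall3 and 44.4% at Sall4, beside a median of 54.8% over genes. Sall3 had a higher GC content than 99.7% of genes, and an observed to expected CpG ratio of 1.01 against a median of 0.553. Sall3, the member without a peak near its starts at day 5 and day 10, was thus also the member with the most GC and CpG there. At Sall2 and Sall4, however, most peaks near a start lay at starts other than the most upstream one. In the central 200 bp of the start regions the GC content was 63.0% at Sall1, 70.5% at Sall3 and 65.5% at Sall4. It was 59.5% in the region beside the downstream start of Sall2. The part of base composition in these lists was not tested.

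Peaks of all lists within 400 bp were merged into 101701 regions, of which 34 lay in Sall windows. Of these, 6 were MEF-specific, 12 ESC-specific, 11 common to MEFs and ESCs, and 5 transient. In percent these were 17.6, 35.3, 32.4 and 14.7, beside 36.4, 28.4, 19.1 and 16.1 over all regions. The common ones included regions over the starts of the neighbouring genes Rab2b, Tox4, Mettl3, Atp9b and Atp9a. At least 1 ESC-specific region was found at all 4 members, as at 78.0% of genes of like length. A MEF-specific region was found at Sall2, Sall3 and Sall4 (77.3%), a common one at all 4 (85.4%) and a transient one at Sall1, Sall3 and Sall4 (44.0%). The split differed most between Sall1, with 6 ESC-specific and 0 MEF-specific regions, and Sall3, with 2 and 3.

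**Figure D4:**
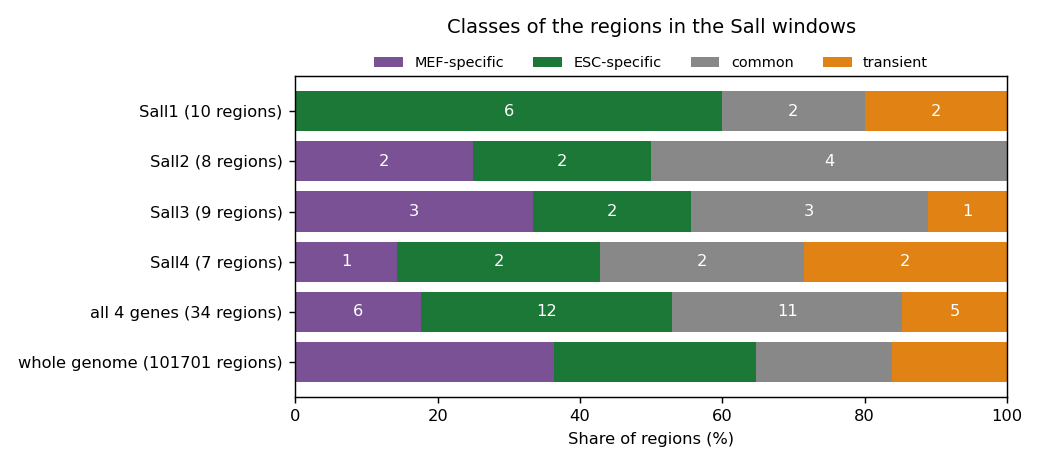
Each bar is divided by the share (%) of regions that are MEF-specific, ESC-specific, common or transient, with the number of regions written in the Sall bars. Sall1 has 6 ESC-specific regions of 10 and no MEF-specific one, and the 34 regions together hold 17.6% MEF-specific against 36.4% over the genome.

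The study designed 19 ChIP-qPCR primer pairs for Sall1 and Sall4, all of which matched the genome once and gave 16 distinct products, 8 at each gene. In MEFs 4 of the 16 overlapped a peak in part or in whole, 2 did at day 5, 6 at day 10 and 2 in ESCs. Sall1-enh2 overlapped peaks by 8, 193, 193 and 193 of its 193 bp, so that it lay at the edge of the MEF peak and inside the others. Sall1-enh1 overlapped by 158 bp at day 10 and was 7917, 8270 and 2953 bp from a peak in MEFs, at day 5 and in ESCs. A second pair named Sall1-enh1, used for KLF4 and JMJD3, lay 31 bp outside the same day 10 peak. The product at the Sall1 start region used for KLF4 and JMJD3 (104 bp) was wholly inside a peak in MEFs, at day 10 and in ESCs and 176 bp from the peak at day 5.

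Sall4-enh lay 73651 bp upstream of the first base, outside the window. It overlapped peaks by 74 bp in MEFs, 37 bp at day 5 and all 177 bp at day 10, with a fold enrichment of 3.30, 2.86 and 2.48. In ESCs the nearest peak was 4584 bp away, a peak of 1717 bp with a fold enrichment of 3.15. The enhancer thus overlapped a peak in the 3 lists that come before ESCs, wholly at day 10 alone. A second enhancer product for Sall4 was 343 bp or more from a peak in every list. The Sall4 start product used for KLF4 overlapped by 18 bp in MEFs and 88 bp at day 10, and was 22660 bp from a peak at day 5 and 277 bp away in ESCs. The pairs spread along the gene bodies gave products outside peaks in all lists, apart from the one at the Sall1 start at day 10.

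**Figure D5:**
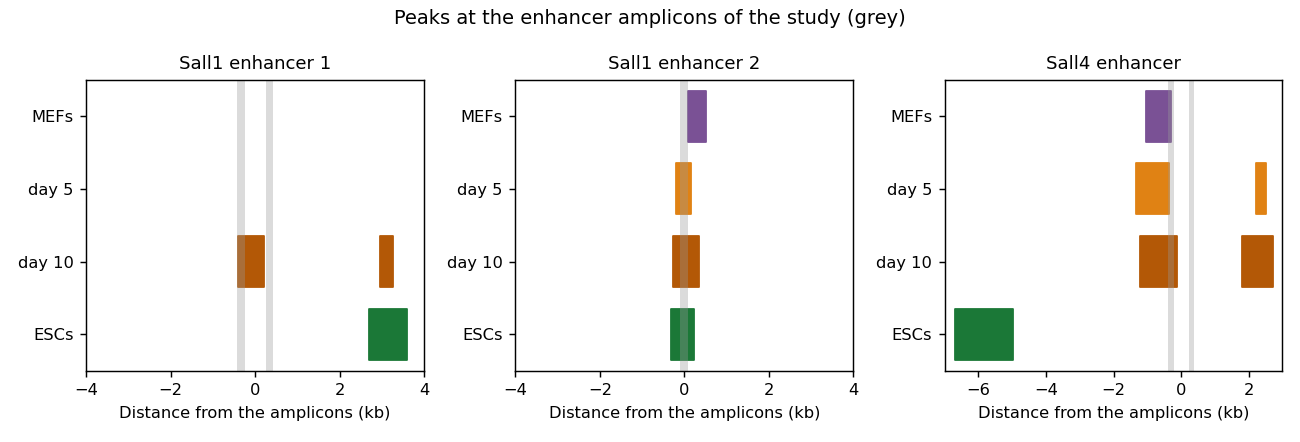
Peaks near the enhancer products of Sall1 and Sall4, by distance in kb from the products, with the direction of transcription to the right. Grey bands are the products. Sall1 enhancer 1 meets a peak only at day 10, Sall1 enhancer 2 in every list, and the Sall4 enhancer in every list but ESCs, whose nearest peak is 4584 bp away.

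A KLF motif (CCNCNCCC) was present in the central 200 bp of 20 of the 34 Sall regions, against 23.5% of all regions and 42.2% of common ones. The others searched on both strands were found as follows: AP-1 (TGANTCA) in 4 against 15.4%, SOX (CATTGT) in 3 against 13.7%, the octamer (ATGCAAAT) in 1 against 2.18% and ESRRB (TCAAGGTCA) in 0 against 0.681%. The KLF motif was found in 10 of 11 common Sall regions, including those over the neighbouring starts of Rab2b, Tox4, Mettl3, Atp9b and Atp9a. It was found in 6 of the 12 specific to ESCs (21.4% genome-wide), in 1 of the 6 specific to MEFs (17.1%) and in 3 of the 5 transient ones (19.8%). Of the 6 ESC-specific regions of Sall1, 5 held one, beside 1 of 2 at Sall2, 0 of 2 at Sall3 and 0 of 2 at Sall4. The KLF match marked above in the Sall4 ESC site lies outside the central 200 bp and is not counted here. Of the 5 sites printed above from outside promoters, Sall4-enh held no KLF match, and Sall1-enh2 held 4. The KLF motif is rich in C and G and the regions differ in base composition, the part of which was not tested.

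Partners of SALL proteins were followed through the fixed lists. The 11 genes for NuRD subunits, the complex that SALL proteins recruit, had a start-site peak in 11, 10, 11 and 10 cases, where the share over all protein-coding genes was 60.0%, 52.1%, 56.0% and 55.8%. Of 10 genes of the pluripotency network that shares sites with SALL4, 5, 2, 2 and 8 had one, so that the network lay below the share over all genes in the lists of MEFs, day 5 and day 10 and above it in that of ESCs. Window peaks of those genes numbered 32, 26, 34 and 83 in the lists as deposited. The median per gene was 2.5, 2, 3 and 9, beside 5, 3, 3 and 4 over all protein-coding genes. The network includes genes of OSKM factors, to whose exons vector sequence can add reads in OSKM cells.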

How the data were processed

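ATAC-seq was carried out on 8 libraries in 4 groups, 2 per group. Per the study's methods and the labels, reads were mapped to mm10 with Bowtie2 (2.2.0 in the submitters' processing notes), filtered on mapping quality, for which labels and methods name different minimums, and freed of mitochondrial reads. A peak caller, a shift for the transposase and the way in which the libraries were joined are not given in the sources used here, and all peak names carry the mark of a first replicate, so that the values may come from 1 library of each pair. The authors deposited 1 peak list per group, which holds a score, a fold enrichment (a ratio), a −log10 p, not used here, and a −log10 q per peak. There were 0 columns of samples of other series. The lists hold no read counts, so depth is unknown and no interval could be given.

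Peaks were set against GENCODE release M21 (21 chromosomes, build checked by chromosome lengths) in python 3.11.15 with numpy 2.4.6 and pandas 2.3.3, and figures were drawn with matplotlib 3.10.9. Any overlap with a gene or the 50 kb to each side counted, peaks of all lists within 400 bp were merged, and motifs were searched in the central 200 bp. Interval code was tested on simulated data. Primer pairs were placed by exact match with a product of at most 2000 bp. Members and lists were chosen with earlier results of these data known. All 4 members are described, other genes are named only where a peak covers their start site in a window, and regions named are start-site, largest, ESC-specific and transient ones. Alternatives covered the window, the peak threshold, list length, start-site criterion and merging. No test between groups was made.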

Additional observations from a re-analysis of the deposited data

How the results depend on the processing

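Of 77 alternative values of the main counts, 45 stayed within 1.5 times and 32 moved further. For the lists of MEFs, day 5, day 10 and ESCs in this order, the window peaks were 5, 2, 4 and 6 over the gene bodies alone and 8, 4, 7 and 13 with 10 kb to each side, and with 100 kb day 5 had 17. With every list limited to its 35226 best peaks, the counts were 7, 9, 15 and 14, so that MEFs had the fewest and day 10 the most, and without peaks on start sites of other genes day 5 had 5 and day 10 had 9. Genes with a start-site peak numbered 4 in MEFs, 2 at day 5 and 4 in ESCs within 1 kb as within 5 kb, 1 at day 10 and 0 in ESCs with the most upstream start alone, and 1 in MEFs and 3 in ESCs with RefSeq starts, a choice made after seeing the data. With equal list lengths, 3 regions were MEF-specific and 4 common, and 1 study product overlapped a peak in MEFs and 1 in ESCs. Within 500 bp of a peak lay 4 products at day 5, 10 at day 10 and 5 in ESCs. In whole regions SOX matches were found in 13 and AP-1 matches in 7. The cause of these moves, beyond fewer or more bases and peaks, was not tested.

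Of 28 alternative values of the difference between ESCs and MEFs per gene, 2 reversed. Sall3 had 1 peak more in ESCs over the gene body and 2 more with 10 kb to each side, against 1 fewer in the window of 50 kb. The Sall1 difference of 6 was 0 over the gene body, 3 with 10 kb to each side and 8 with 100 kb. Sall2, with a difference of 0 in the window that could not reverse, ranged from -2 (−log10 q at least 2) to 1 (100 kb). At equal list lengths Sall1 had 0, 3, 5 and 5 peaks and Sall4 0, 1, 5 and 3, so that the order of MEFs and ESCs held for both. Leaving out each replicate could not be run, because libraries were not kept apart. No paired analysis was possible because 1 list was deposited per group, with no values for each library.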

Other observations

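The primer pair listed as Sall4-1 was made of the same sequences as that listed as Sall1-4, and both matched 1 place, an exon of Sall1 at chr8:89028074-89028194. That product lay 12368, 12073, 12004 and 2236 bp from the nearest peak in the lists of MEFs, day 5, day 10 and ESCs.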
